A study of Mus musculus with 30 samples.

Results

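The 10 genes of the mouse α and β tubulin isotypes listed as Tuba1a, Tuba1b, Tuba1c, Tuba4a, Tubb2a, Tubb2b, Tubb3, Tubb4b, Tubb5 and Tubb6 were followed in cell lines selected for resistance to paclitaxel. The members were taken by gene symbol, and all 10 were found among the 55401 gene identifiers of the count table. RNA was sequenced from the 3′ end in 30 lines derived from Eµ-Myc; p19ARF -/- cells, a mouse B cell lymphoma line that grows in suspension. In all 30 lines, controls included, a Myc transgene is driven by the immunoglobulin heavy chain enhancer and p19ARF is deleted. There were 17 lines selected with paclitaxel, 12 control lines passaged with DMSO, the solvent, in place of drug, and 1 untreated parental line. In each cycle 10000 cells per well met a dose meant to kill 85% of them over 3 days and then recovered for 4 days, and cycles ran for 12 to 18 weeks. Each line was 1 well grown from the same parental line and gave 1 library, so the spread between lines holds the history of each well, the culture and the library together. The comparison asked how isotype levels and isotype shares differed between the paclitaxel and DMSO lines.

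Microtubules are polymers of heterodimers of 1 α and 1 β tubulin, and paclitaxel binds the β subunit inside the polymer and stabilizes it. Each subunit is encoded by several genes, the isotypes, whose products are nearly identical in the body of the protein and diverge in the acidic tail at the C-terminus. Cells also hold their tubulin mRNA in check: a surplus of free dimer leads to decay of tubulin mRNAs while they are being translated, through the factor TTC5, which recognizes the first residues of the nascent chain.

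The coding starts are shown because they encode the residues read in this autoregulation. The first 12 bases, in capitals, were the same in Tuba1a, Tuba1b and Tuba1c, and the same in Tubb3 and Tubb4b. Sequences were read from the GENCODE M21 transcripts of build GRCm38.
Tuba1b start: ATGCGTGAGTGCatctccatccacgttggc
Tuba4a start: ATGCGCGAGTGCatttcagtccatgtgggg
Tubb5 start: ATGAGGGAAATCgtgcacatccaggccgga
Tubb4b start: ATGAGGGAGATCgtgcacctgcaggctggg
Tubb3 start: ATGAGGGAGATCgtgcacatccaggccggc

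The last 20 codons with the stop codon encode the tail in which the isotypes differ, and are shown for Tubb5 and for the 3 β isotypes whose shares had a p under 0.05 below. Capitals mark bases that were not matched in an alignment to the most abundant of them, Tubb5.
Tubb5 end: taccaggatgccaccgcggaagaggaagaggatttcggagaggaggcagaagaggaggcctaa
Tubb4b end: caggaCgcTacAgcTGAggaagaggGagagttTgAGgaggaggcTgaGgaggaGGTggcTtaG
Tubb2b end: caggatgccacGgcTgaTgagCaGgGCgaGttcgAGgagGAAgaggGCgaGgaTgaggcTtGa
Tubb3 end: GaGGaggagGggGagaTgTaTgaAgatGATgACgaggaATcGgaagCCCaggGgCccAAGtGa

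Among the 4 β ends compared with that of Tubb5 (the end of Tubb6 was not compared), Tubb3 differed most, at 26 bases, followed by Tubb2b at 19, Tubb4b at 17 and Tubb2a, whose end is not shown, at 16. Over the whole coding sequence the α members shared from 84.7% of their bases (Tuba1a with Tuba4a) to 98.3% (Tuba1a with Tuba1b), and the β members from 80.4% (Tubb5 with Tubb6) to 96.5% (Tubb2a with Tubb2b).

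This closeness bears on which reads could be assigned. Of the windows of 50 bases in the last 500 bases of the transcript, 56.3% for Tuba1a, 63.6% for Tuba1b and 68.3% for Tuba1c also occurred in a transcript of another gene, mostly one another and their pseudogenes. The share was 42.4% for Tubb2a and 35.3% for Tubb4b, and no window was shared for Tuba4a, Tubb2b, Tubb3, Tubb5 or Tubb6. How reads matching several genes were treated is not given in the sources used here, so the split between Tuba1a, Tuba1b and Tuba1c is uncertain. The same holds for the split between Tubb2a and Tubb2b, since Tubb2b was among the genes that shared windows of Tubb2a. If such reads were dropped, these 3 genes, Tubb2a and Tubb4b would also be counted too low beside members with no shared window, which would touch the order of levels across genes, the size of the shares and the ratio of β to α. The 17 other genes that shared such windows held 1515 counts in the 30 libraries, 0.388% of the 390154 counts of the members. Without a stated use of strand, reads of Tuba1b, Tuba4a and Tubb4b also cannot be told from those of the antisense genes Gm41396 (230 counts), Stk16 (2942 counts) and Fam166a (14 counts), which overlap their exons.

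The genes lie in a few clusters (GRCm38). Tuba1b (chr15:98931425-98934565) and Tuba1a (chr15:98949837-98953703) are neighbours on the minus strand, with Tuba1c (chr15:99029891-99038110) on the plus strand beside them. Tubb2a (chr13:34074274-34078007) and Tubb2b (chr13:34126748-34130466) are a second pair. Tuba4a (chr1:75214228-75219865), Tubb3 (chr8:123411424-123422015), Tubb4b (chr2:25222160-25224702) and Tubb5 (chr17:35833921-35838306) stand alone, as does Tubb6 on chromosome 18.

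Levels are given as TMM-scaled CPM, counts per 1000000 counts of a library, where the TMM factor is a trimmed mean of log ratios between libraries. Libraries held from 1053948 to 6739131 counts in the DMSO lines, from 480919 to 6682169 in the paclitaxel lines and 1851837 in the parental line. All 7 B cell markers were detected, with summed levels of 2264 to 4385 CPM in the DMSO lines and 1429 to 3993 in the paclitaxel lines. Of the other markers, Cd3e, Cd4, Dcn, Snap25 and Dcx were at 0 in all 30 libraries, and the 5 neuronal markers summed to 1.71 to 11.6 CPM in the DMSO lines and 0 to 18.8 in the paclitaxel lines, nearly all of it Map2. The T cell markers summed to at most 2.44 CPM in a DMSO line and 13.02 in a paclitaxel line (Pac D7, from Cd3g), and the fibroblast markers to at most 0.524. The myeloid markers summed to 1.71 to 27.9 CPM in the DMSO lines and 4.23 to 50.6 in the paclitaxel lines (highest in Pac B2), mostly from Itgam, which was counted in all 30 libraries. Lines are named as their libraries are labelled. By the correlation of centred profiles over the 9445 genes tested, 10 of the 12 DMSO libraries and 15 of the 17 paclitaxel libraries were on average nearer to their own treatment. The libraries labelled DMSO 11, DMSO 12, Pac C1 and Pac H9 were not, and for DMSO 11 the means, both -0.0499, were nearly equal. By the mean distance between profiles, 12 of 12 DMSO but only 4 of 17 paclitaxel libraries were nearer to their own treatment. The library nearest to that labelled DMSO 12 was labelled Pac H4, and the one nearest to Pac H9 was labelled DMSO 2. A DMSO library was also nearest to Pac A6, Pac C1 and Pac D7. A comparison with fold changes listed by the study, made in earlier work on these data and not repeated here, went against the labels from DMSO 12 on, each by one library. Such a shift would change the treatment only for the libraries labelled DMSO 12, Pac H9 and Parental, but the names of all paclitaxel lines. Results are therefore also given without DMSO 12 and Pac H9, and the name of a line holds for its label only.

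Because the libraries were made from 3′ ends, where counts do not scale with transcript length, levels of different genes were compared without dividing by length. Whether copies made by PCR were collapsed is not given in the sources used here, so these levels are of reads, not of molecules. In the DMSO lines Tubb5, the main β tubulin of dividing cells, stood highest at 2292 ± 272 CPM (SD, n = 12). It was followed by Tuba1b at 890.5 ± 125, Tubb4b at 340 ± 49.1, Tuba4a at 264 ± 59.0, Tuba1a at 181 ± 80.7 and Tuba1c at 168 ± 23.9 CPM. Tubb2a at 35.4 ± 15.2, Tubb2b at 27.4 ± 7.63, Tubb3 at 1.96 ± 1.38 and Tubb6 at 0.752 ± 0.674 CPM formed the low end. The ranges over the 12 lines did not touch between Tubb5 and Tuba1b, Tuba1b and Tubb4b, Tuba1c and Tubb2a, or Tubb2b and Tubb3. The other ranges overlapped: Tubb4b was above Tuba4a in 12 of 12 lines, Tuba4a above Tuba1a in 10, Tubb2a above Tubb2b in 9 and Tubb3 above Tubb6 in 8. Tuba1a was above Tuba1c in 6 of 12 lines, and these neighbours did not differ beyond their spread. In the paclitaxel lines the order had Tuba1c above Tuba1a in 12 of 17 lines and Tubb2b above Tubb2a in 14 of 17, both the other way round than in the DMSO means.

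**Figure D1:**
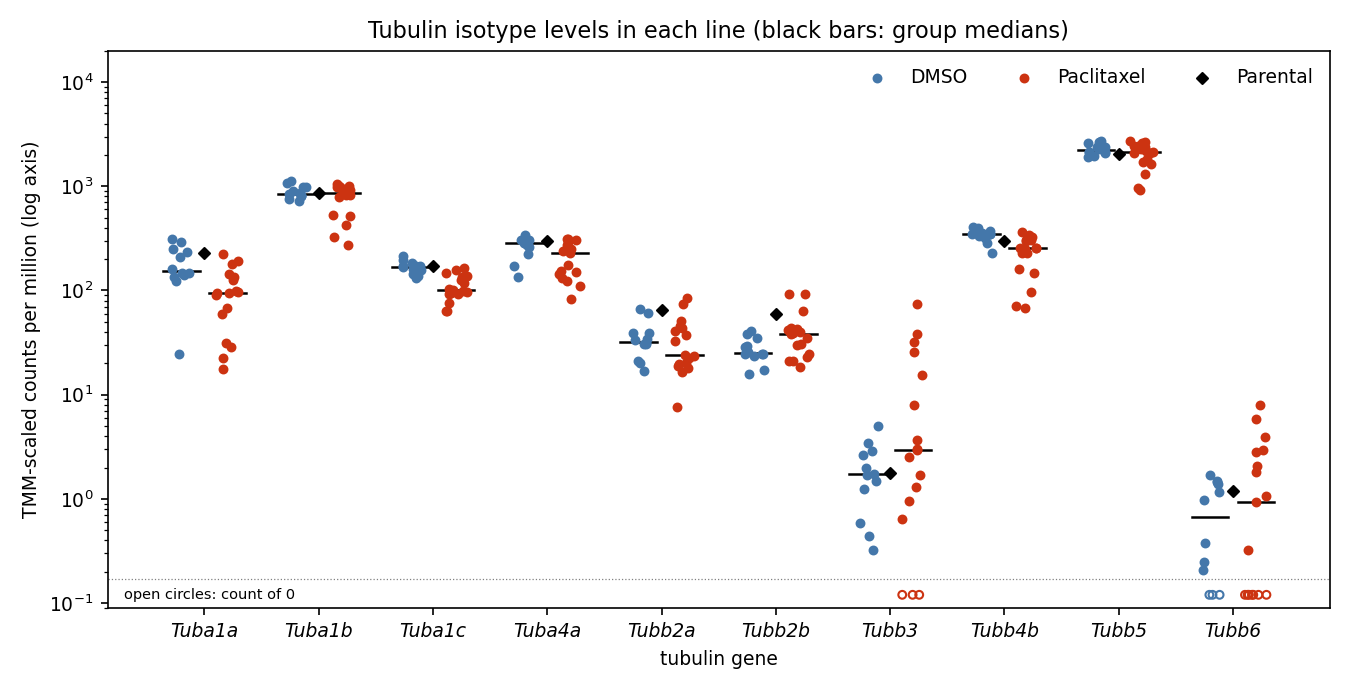
TMM-normalized CPM (log axis) of each tubulin gene, 1 point per line, for 12 DMSO lines, 17 paclitaxel lines and the parental line, with black bars at the group medians and open circles for a count of 0. Levels ran from 2738 CPM (Tubb5 in Pac H4) to 0, Tuba1c lay lower in the paclitaxel lines, and Tubb3 reached 74.5 CPM in Pac C3 against at most 5.06 in a DMSO line.

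In the test across all genes, 1 of the 9 members that passed the filter on low counts was called, Tuba1c, lower in the paclitaxel lines. Calls used edgeR's quasi-likelihood test with Benjamini-Hochberg adjustment over all 9445 genes and an adjusted p under 0.01. At that threshold 2.20% of all genes were called, 1.21% lower and 0.995% higher in the paclitaxel lines. An unadjusted p under 0.05 was reached by 5 of the 9 members, against 25.1% of all genes, and an adjusted p under 0.05 was reached by Tuba1c and Tubb3, against 7.56%. The median log2 fold change of the 9 members, paclitaxel minus DMSO, was -0.20, and that of all genes tested was 0.07. Scaling by library totals alone moved the median of all genes to 0.19 and the calls from 94 higher and 114 lower to 191 higher and 88 lower.

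**Figure D2:**
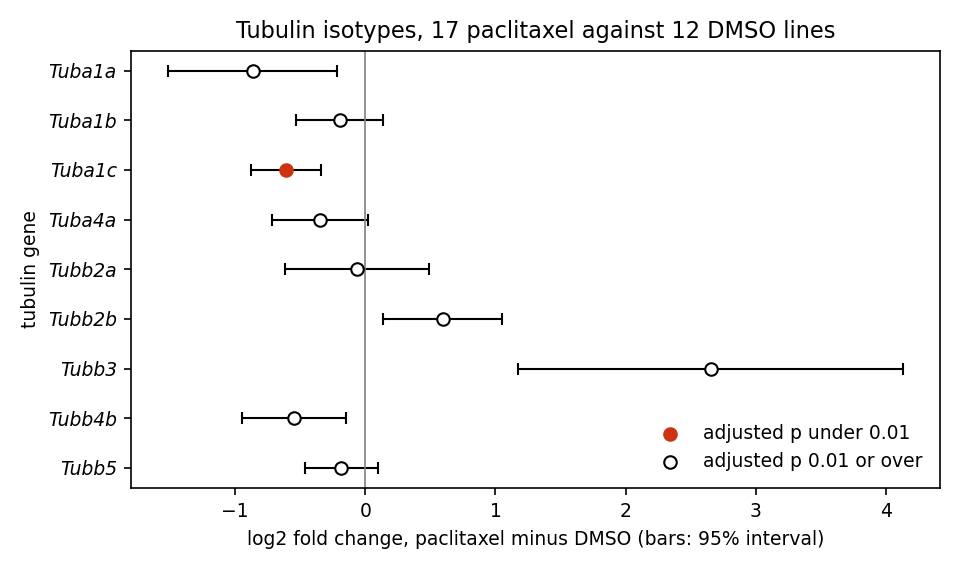
Log2 fold change of 9 tubulin genes, 17 paclitaxel minus 12 DMSO lines (points), with 95% intervals from the edgeR fit (bars), filled where the adjusted p was under 0.01. The interval of Tuba1c ran from -0.88 to -0.34 and that of Tubb3, the widest, from 1.17 to 4.13.

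Tuba1c, an α isotype of most dividing cells, ranged in the DMSO lines from 131 CPM (DMSO 5) over a median of 169.9 to 216 CPM. In the paclitaxel lines it ranged from 63.0 CPM (Pac C11) over a median of 101 to 165 CPM. All 17 paclitaxel lines were below the DMSO median and 12 were below the lowest DMSO line, while 5 lay within the DMSO range. The means were 168 ± 23.9 CPM (SD, n = 12) and 110.0 ± 30.8 (n = 17), a log2 fold change of -0.61 (standard error 0.132, edgeR adjusted p = 0.00408). Without DMSO 12 and Pac H9, 11 of 16 paclitaxel lines were below the lowest DMSO line, and the means were 170.0 ± 23.7 and 111 ± 31.5 CPM. Without DMSO 8, its highest DMSO line, the log2 fold change was -0.58 (edgeR adjusted p = 0.0110), and with every library thinned to 480919 counts it was -0.50 (edgeR adjusted p = 0.0165), so the call was lost in both.

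Tuba1a, the α isotype best known from neurons, was spread widely in both groups. It ranged from 24.6 CPM (DMSO 11) over a median of 154 to 309.9 CPM in the DMSO lines, and from 17.8 (Pac G9) over 94.5 to 223 CPM in the paclitaxel lines. The ranges overlapped, with 14 of 17 paclitaxel lines below the DMSO median and 2 below the lowest DMSO line, Pac F10 and Pac G9. The log2 fold change was -0.87 (standard error 0.319, edgeR adjusted p = 0.0868), which missed the threshold.

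Tuba1b, the most abundant α isotype here, ranged from 729 over 850.2 to 1122 CPM in the DMSO lines and from 273 over 864 to 1041 CPM in the paclitaxel lines. The medians were close, and 5 paclitaxel lines were below every DMSO line, with the lowest levels in Pac C11 and Pac F10 and the others in Pac G9, Pac D4 and Pac D7. Its log2 fold change was -0.20 (standard error 0.165, edgeR adjusted p = 0.467). Tuba4a, an α isotype whose gene encodes no C-terminal tyrosine, ranged from 135 over 283 to 338 CPM and from 83.2 over 227 to 311 CPM, with a log2 fold change of -0.35 (standard error 0.181, edgeR adjusted p = 0.225). Since reads of Tuba1a, Tuba1b and Tuba1c may be exchanged, their sum is also given: it was 1239 ± 147 CPM in the DMSO lines (SD, n = 12) and 986 ± 306 CPM in the paclitaxel lines (n = 17).

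For Tubb5, as for Tuba1b, a few paclitaxel lines lay far below the others. It ranged from 1922 over 2229 to 2714 CPM in the DMSO lines and from 925 (Pac F10) over 2119 to 2738 CPM in the paclitaxel lines, with 6 paclitaxel lines below and 1 above the DMSO range. The log2 fold change was -0.19 (standard error 0.138, edgeR adjusted p = 0.413).

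Tubb4b, the other broadly expressed β isotype and a component of ciliary microtubules, ranged from 227 (DMSO 11) over 348 to 408.5 CPM in the DMSO lines. In the paclitaxel lines it ranged from 68.0 (Pac C11) over 254 to 362 CPM, and 16 of 17 lines were below the DMSO median, 5 of them below every DMSO line. The means were 340 ± 49.1 and 232 ± 92.8 CPM, with a log2 fold change of -0.55 (standard error 0.196, edgeR adjusted p = 0.0790).

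Tubb2a and Tubb2b, the pair of class II β isotypes abundant in brain, were low in these cells and neither was called. Tubb2b ranged from 15.8 over 25.3 to 40.7 CPM in the DMSO lines and from 18.6 over 38.0 to 93.4 CPM in the paclitaxel lines. Of the paclitaxel lines, 6 were above every DMSO line (Pac C3, Pac D4, Pac D7, Pac E2, Pac G9 and Pac H4) and none was below. The parental library was at 59.0 CPM, and only Pac C3, Pac D7 and Pac H4 exceeded it. The log2 fold change of Tubb2b was 0.59 (standard error 0.224, edgeR adjusted p = 0.0952). Tubb2a ranged from 17.0 over 32.3 to 66.9 CPM and from 7.57 over 23.9 to 83.9 CPM, with 2 paclitaxel lines above and 2 below the DMSO range and a log2 fold change of -0.07 (standard error 0.272, edgeR adjusted p = 0.902). Whether the fold changes of Tubb2a and Tubb2b differ was not tested. Since reads of Tubb2a may also match Tubb2b, the sum of both is given too. It was 62.7 ± 20.3 CPM in the DMSO lines (SD, n = 12) and 75.2 ± 41.4 CPM in the paclitaxel lines (n = 17). Scaled by library totals alone, Tubb2a was at 0.03.

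Tubb3, the class III β isotype of neurons that has been studied as a marker of taxane resistance in carcinomas, was low in every DMSO line, with 2 to 15 reads per library. Its DMSO levels ran from 0.323 (DMSO 4) over 1.73 to 5.06 CPM (DMSO 12). In the paclitaxel lines they ran from a count of 0 over 2.94 to 74.5 CPM. The lines above every DMSO line were Pac C3 with 74.5 CPM (87 reads), Pac D10 with 38.2 (37 reads), Pac E1 with 32.2 (137 reads), Pac C11 with 25.6 (128 reads), Pac D7 with 15.3 (54 reads) and Pac E2 with 8.04 CPM (35 reads). The other 11 paclitaxel lines did not exceed the DMSO range, and in Pac C1, Pac H8 and Pac H9 no read was counted. A count of 0 allows up to 3 reads, which was 6.27 CPM in Pac C1, 1.57 in Pac H8 and 2.72 in Pac H9, so Pac C1 was too shallow to be placed against the DMSO lines. Without DMSO 12 and Pac H9 the highest DMSO line was DMSO 7 at 3.46 CPM, and Pac F10 at 3.70 CPM was then also above it. The log2 fold change was 2.65 (standard error 0.727, edgeR adjusted p = 0.0213), and it was 2.05 (edgeR adjusted p = 0.0412) without Pac C3 and DMSO 11. With edgeR's likelihood ratio test the adjusted p was 0.00620 and with DESeq2 it was 0.00460.

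Tubb6, a β isotype of muscle and other tissues, was at the limit of detection and did not pass the filter. It was counted 0 to 10 times per library in the DMSO lines and 0 to 34 times in the paclitaxel lines, with no read in 3 of 12 and 7 of 17. Its highest level was 7.99 CPM, in Pac E1. Tubb6 did not enter the test across genes, so the 10 members are described by 9 fold changes.

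The isotype share was the percent of a line's counts of the 4 α members, or of the 6 β members, that came from 1 member. Shares need no scaling between libraries, and the shares of a class sum to 100%, so a lower share of one member raises the others. In the DMSO lines Tubb5 held 84.9 ± 2.05% of the β counts and Tubb4b 12.6 ± 1.57% (SD, n = 12), and the other 4 β members together held the rest. Tuba1b held 59.4 ± 6.32% of the α counts, Tuba4a 17.5 ± 3.49%, Tuba1a 11.8 ± 5.02% and Tuba1c 11.3 ± 1.89%.

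**Figure D3:**
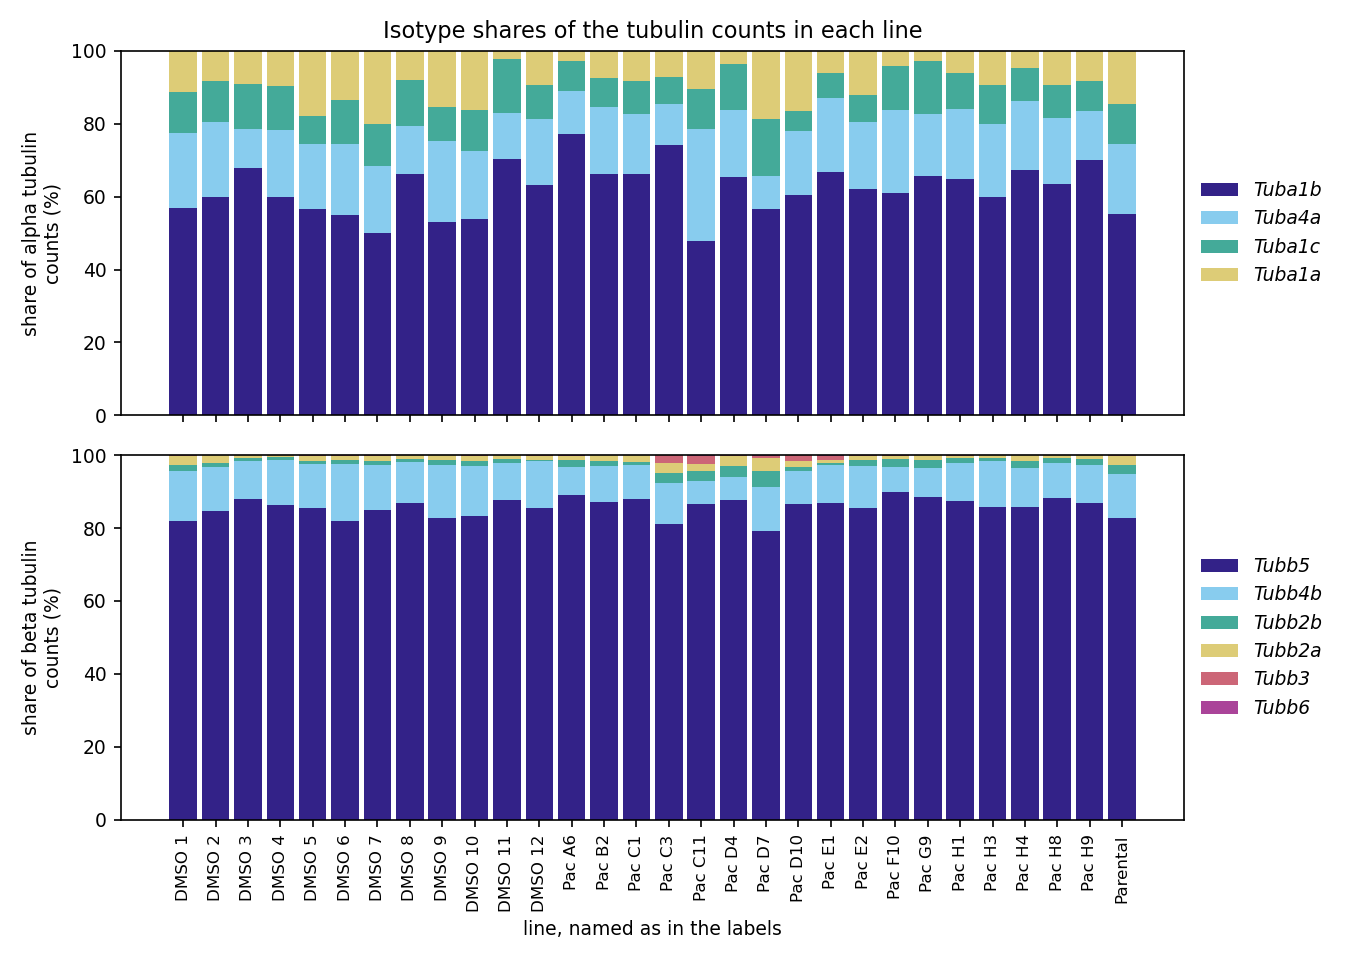
Stacked shares (%) of the α tubulin counts (top) and the β tubulin counts (bottom) in each of the 30 lines, named as labelled. Tubb5 held from 79.3% (Pac D7) to 90.0% (Pac F10) of the β counts, and Tuba1b from 47.8% (Pac C11) to 77.3% (Pac A6) of the α counts.

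Of the 10 shares, each tested once by a two-sided permutation test of the difference in means with 100000 resamples, 4 had a p under 0.05 without adjustment: Tubb4b, Tubb2b, Tubb3 and Tuba1b. The clearest was the share of Tubb4b. It ranged from 10.1% (DMSO 11) over 12.5% to 15.6% (DMSO 6) in the DMSO lines and from 6.14% (Pac C11) over 9.76% to 12.6% (Pac H3) in the paclitaxel lines. Of 17 paclitaxel lines, 16 were below the DMSO median and 9 were below every DMSO line. The counts behind the lowest share were 340 of 5538, with a 95% Wilson interval of 5.54 to 6.80%, and those behind the lowest DMSO share 1554 of 15397 (9.63 to 10.6%). The intervals cover counting error only. The means were 12.6 ± 1.57% and 9.55 ± 1.92%, a difference of -3.06 percentage points (permutation p = 6e-05). Without DMSO 12 and Pac H9 the difference was -3.09 points (permutation p = 0.00032), thinned to equal depth it was -2.49 (permutation p = 0.00185), and leaving out 1 line at a time it stayed between -3.29 and -2.79. Of the 9 lines below every DMSO line, 5 were among the 6 with the lowest summed tubulin level, and 4 were among the other 11, which ran from 9.08 over 10.4 to 12.6%.

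The share of Tubb2b ranged from 0.541% (DMSO 12) over 1.03% to 1.57% in the DMSO lines and from 0.625% (Pac E1) over 1.60% to 4.37% (Pac D7) in the paclitaxel lines. It was above every DMSO line in 9 of 17 paclitaxel lines and below none. The parental library, outside the test, was at 2.37%, and only Pac C3, Pac C11, Pac D4 and Pac D7 exceeded it. Its label is 1 of those that the shift described above would change. The means were 1.03 ± 0.322% and 1.85 ± 0.961%, a difference of 0.821 points (permutation p = 0.00606), and 0.793 points without DMSO 12 and Pac H9 (permutation p = 0.0129). Of the 9 lines above the DMSO range, 6 were the lines with the lowest summed tubulin level, described below, where the share ran from 1.86 over a median of 2.54 to 4.37%. In the other 11 paclitaxel lines it ran from 0.625 over 1.27 to 2.82%, and 3 were above the DMSO range. The part of the lower sums in this difference was not tested. The share of Tubb3 averaged 0.0727 ± 0.0492% and 0.539 ± 0.789% (permutation p = 0.0421). It exceeded every DMSO line in 8 of 17 lines and was highest in Pac C11, at 2.31% (Wilson interval 1.95 to 2.74%), and Pac C3, at 2.30% (1.86 to 2.82%). The medians, 0.0645% and 0.106%, lay closer together than the means (permutation p = 0.344 for the difference in medians), and without Pac C3 and DMSO 11 the permutation p was 0.0847. Leaving out any 1 of 15 lines also brought the p of the Tubb3 share to 0.05 or more. The share of Tubb5 was 84.9 ± 2.05% and 86.5 ± 2.66% (permutation p = 0.0981), and neither that of Tubb2a (permutation p = 0.582) nor that of Tubb6 (permutation p = 0.107) passed.

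Among the α isotypes, the share of Tuba1b was 59.4 ± 6.32% in the DMSO lines and 64.4 ± 6.64% in the paclitaxel lines, 5.03 points apart (permutation p = 0.0493), with 15 of 17 paclitaxel lines above the DMSO median. The p rose to 0.05 or more when any 1 of 20 lines was left out. Without DMSO 12 and Pac H9 the difference was 5.02 points (permutation p = 0.0647). The share of Tuba1a was 11.8 ± 5.02% and 8.13 ± 4.49% (permutation p = 0.0504), with 14 of 17 lines below the DMSO median. That of Tuba1c was 11.3 ± 1.89% and 9.72 ± 2.75% (permutation p = 0.103), and that of Tuba4a 17.5 ± 3.49% and 17.7 ± 4.93% (permutation p = 0.918). The level of Tuba1c thus passed the test across genes and its share of the α counts did not, while for Tubb4b the share had the small p and the level missed the threshold. The thresholds were unlike, an adjusted p under 0.01 for levels and an unadjusted p under 0.05 for shares. Without adjustment the edgeR p of the Tubb4b level was 0.00863, so its level was also lower by the threshold used for shares.

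**Figure D4:**
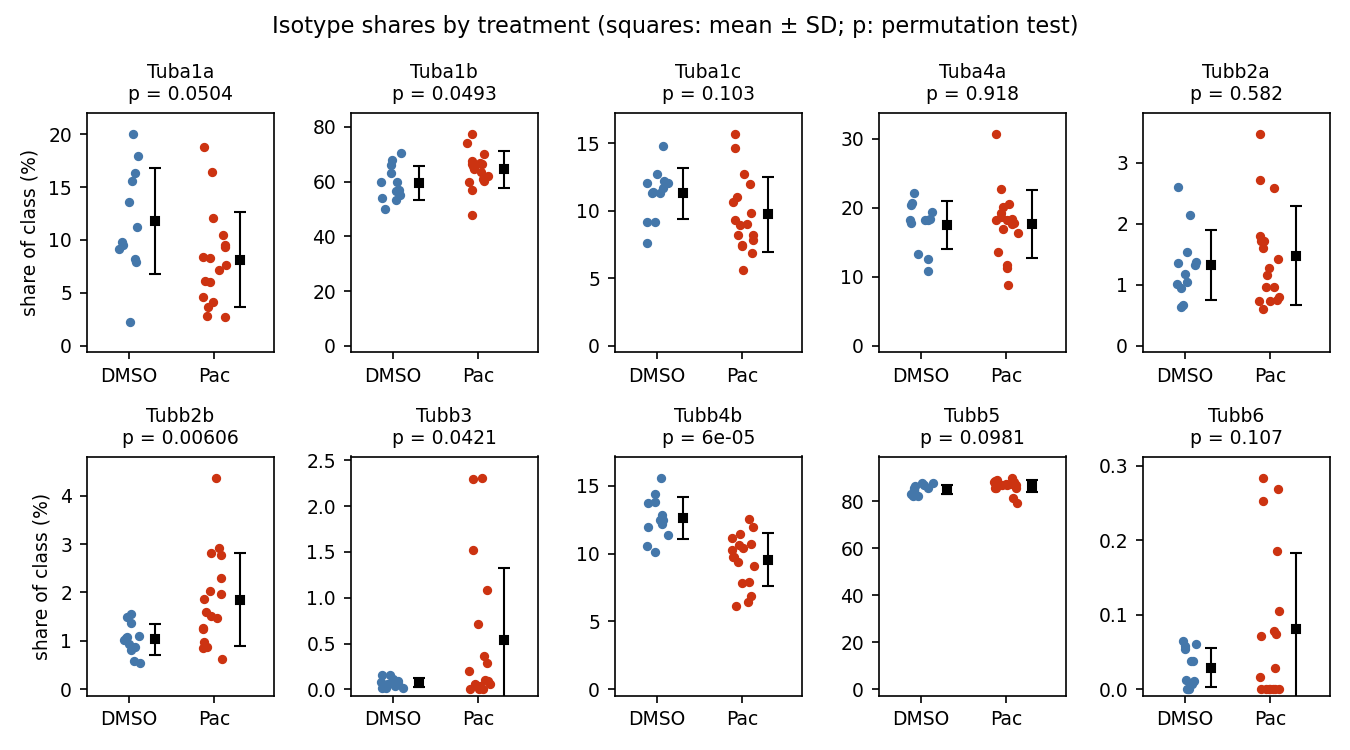
Share (%) of the α or β counts held by each isotype, 1 point per line in 12 DMSO and 17 paclitaxel (Pac) lines, with squares and bars for the mean ± SD (bars of Tubb3 and Tubb6 are cut at the axis) and the permutation p above each panel. Of the 17 paclitaxel points, 16 lay below the DMSO median for Tubb4b, down to 6.14%, and 13 lay above it for Tubb2b, up to 4.37%.

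Summed over the class, the α members came to 1503 ± 165 CPM in the DMSO lines (SD, n = 12) and 1194 ± 367 in the paclitaxel lines (n = 17), and the β members to 2697 ± 294 and 2337 ± 658 CPM. The sum of all 10 ranged from 3317 (DMSO 11) over 4112 to 4769 CPM in the DMSO lines and from 1563 (Pac F10) over 3854 to 4664 CPM in the paclitaxel lines. In 6 paclitaxel lines it was below every DMSO line: Pac F10 at 1563, Pac C11 at 1680.2, Pac D4 at 2300.3, Pac G9 at 2516, Pac D7 at 3083 and Pac A6 at 3162 CPM. The other 11 lay within the DMSO range, so the wider spread of the paclitaxel group came with these 6 lines. As a percent of library counts, without the TMM factor, 5 of the 6 were below the lowest DMSO line (DMSO 11 at 0.338%), Pac D7 only just, at 0.334%, and Pac A6, at 0.371%, lay within the DMSO range. The ratio of β to α CPM was 1.80 ± 0.164 in the DMSO lines and 2.00 ± 0.317 in the paclitaxel lines, and was highest in Pac G9 at 2.87. The 6 lines also stood apart from the other paclitaxel lines in detected genes: thinned to the same number of counts, they showed 10996 to 12203 detected genes, the other 11 paclitaxel lines 9852 to 10694 and the DMSO lines 10257 to 11331, a range that holds Pac A6 at 10996. Their summed B cell markers ran from 1429 to 2738 CPM, against 1523 to 3993 in the other paclitaxel lines. The part of these differences in the lower tubulin sums was not tested, and in bulk RNA less tubulin mRNA per cell and fewer cells with much of it cannot be told apart.

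**Figure D5:**
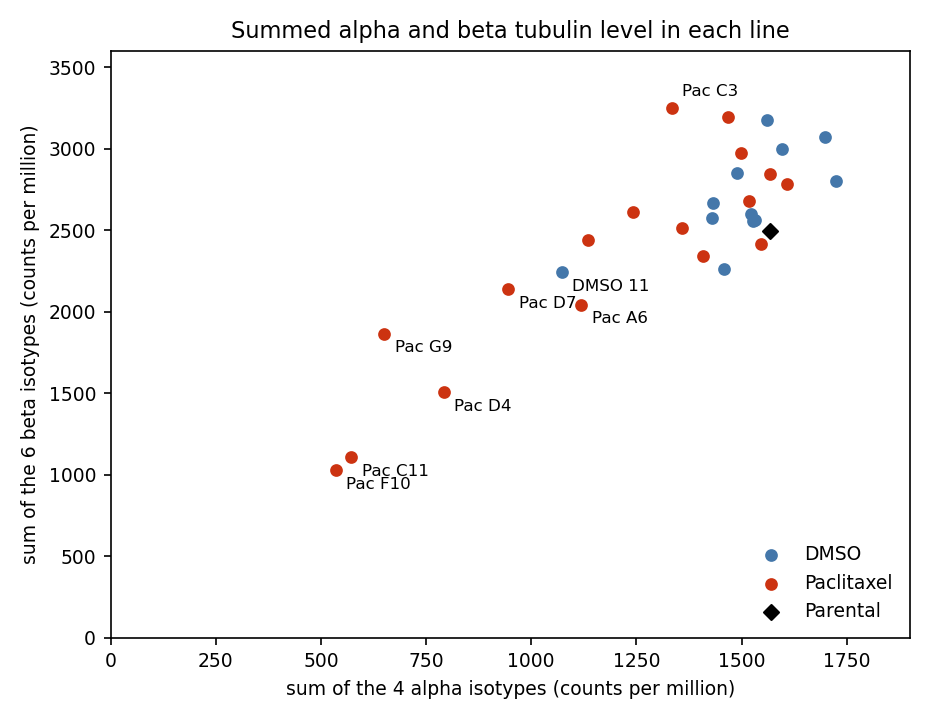
Sum of the 6 β isotypes against the sum of the 4 α isotypes (CPM), 1 point per line, for DMSO, paclitaxel and parental lines. Pac F10 and Pac C11 had the lowest sums, 535 and 572 CPM of α and 1028 and 1108 CPM of β, and Pac G9, at 651 CPM of α and 1865 CPM of β, had the highest ratio, 2.87.

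In their β shares the 6 lines with low sums had features in common. All 6 had a share of Tubb2b above every DMSO line, and 5 of them, Pac D7 at 12.0% being the exception, had the 5 lowest shares of Tubb4b of all lines, from 6.14 to 7.90%. The sum by which the lines were singled out holds the β counts that these shares are divided by. By level, Tubb2b was above the DMSO range in Pac D4, Pac D7 and Pac G9. It lay within that range in Pac A6 (38.0 CPM), Pac C11 (30.8 CPM) and Pac F10 (20.9 CPM). In other isotypes the 6 lines differed. Pac D7 had the highest shares of Tubb2b (4.37%), Tubb2a (3.47%) and Tuba1c (15.7%) of all paclitaxel lines, the highest share of Tuba1a among them (18.8%, Wilson interval 17.5 to 20.2%), and the lowest of Tuba4a (8.81%) and Tubb5 (79.3%, 78.3 to 80.2%). Pac C11 had the highest share of Tuba4a (30.7%, 29.03 to 32.41%) and of Tubb3 and the lowest of Tuba1b (47.8%) and Tubb4b. Pac F10 had the highest share of Tubb5 (90.0%, 89.2 to 90.7%), and Pac G9 (2.73%, 2.28 to 3.28%) and Pac A6 (2.80%, 2.30 to 3.40%) the lowest of Tuba1a among them. The lowest Tuba1a share of any line, 2.30%, was in the DMSO line DMSO 11. Among the paclitaxel lines, the Wilson interval of the extreme line was separate from that of the next line for Tubb2b in Pac D7 and for Tuba4a and Tuba1b in Pac C11, and overlapped with it for the other extremes named here. Of the 6 lines above the DMSO range for the level of Tubb3, Pac C11 and Pac D7 had low sums, while Pac C3, Pac D10, Pac E1 and Pac E2 had sums of 3871 to 4580 CPM, within the DMSO range.

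Levels of some members followed each other across the 29 DMSO and paclitaxel lines. Spearman's rho of log2 CPM, given as a description since the points share libraries, was highest for Tuba1b with Tubb5, at 0.854 (0.909 within the DMSO lines and 0.860 within the paclitaxel lines). For Tubb4b with Tubb5 it was 0.668, but 0.273 within the DMSO lines and 0.875 within the paclitaxel lines. For Tubb3 the highest value with any of the other 8 members tested was 0.308, with Tubb2a (0.510 within the DMSO lines and 0.282 within the paclitaxel lines). Within the 12 DMSO lines alone, where Tubb3 had few reads, its highest value was 0.559, with Tuba4a, against -0.036 within the paclitaxel lines. Among all genes tested that are not tubulins, those most like Tuba1b were AC157548.1 (0.947), Itgb3bp (0.754) and Fbxo5 (0.750). Those most like Tubb5 were 2610002M06Rik (0.792), AC157548.1 (0.790) and Mrps10 (0.787), and those most like Tubb3 were Gm21926 (0.701), Slc25a44 (0.668) and Arl4a (0.665).

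The rest of the tubulin superfamily was followed in a list of 10 genes. The α genes Tuba3a, Tuba3b, Tuba8 and Tubal3 and the β genes Tubb1 and Tubb4a were counted 1 to 9 times in all 30 libraries together and entered no test. Those tested were Tubg1 and Tubg2, which encode the γ tubulin that nucleates microtubules, and Tubd1 and Tube1, the δ and ε tubulins of centrioles. None of the 4 was called by edgeR's quasi-likelihood test, against 2.20% of all genes tested. All 4 had an unadjusted p under 0.05, against 25.1% of all genes tested. The log2 fold changes ran from 0.35 (Tubg1, 119 ± 17.5 and 151 ± 47.1 CPM, edgeR adjusted p = 0.165) to 0.94 (Tubg2), with a median of 0.64. The list of 22 genes that fold tubulin or act in its autoregulation (the CCT chaperonin, prefoldin, the tubulin cofactors, Arl2 and Ttc5) was tested in full. None was called, against 2.20% of all genes, 3 had an unadjusted p under 0.05, against 25.1%, the median log2 fold change was 0.02 and the values ran from -0.26 (Pfdn4) to 0.83 (Tbcel). Ttc5, the autoregulation factor named above, was at 85.5 CPM in the DMSO and 100.1 CPM in the paclitaxel lines, with a log2 fold change of 0.22 (edgeR adjusted p = 0.343). None of 15 mitotic genes, listed as markers of dividing cells, was called, again against 2.20% of all genes. Of the 15, 2 had an unadjusted p under 0.05, again against 25.1% of all genes. The median log2 fold change of the 15 was -0.08, with a range from -0.48 to 0.27.

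The parental library, outside all tests, had 2063 CPM of Tubb5, 867 of Tuba1b, 302 of Tubb4b, 172 of Tuba1c and 1.79 of Tubb3 (3 reads). Its Tubb4b share was 12.1% (Wilson interval 11.2 to 13.1%) and its sum of all 10 members was 4059 CPM. Both lay within the DMSO range. It is a single library, and 1 of those whose label would change in the shift described above.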

How the data were processed

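Raw whole-number counts per gene were deposited by the authors, who per their methods and the labels made 3′ digital gene expression libraries in pools of 15, aligned them with STAR 2.5.1b to GRCm38 (mm10) and counted reads per gene. Which line was in which pool, and whether molecular identifiers were collapsed, is not given in the sources used here. No column of per-sample values was left unused, and 55141 of 55401 identifiers matched a symbol in GENCODE M21. Libraries were scaled with TMM, genes were filtered with filterByExpr, and 17 paclitaxel lines were compared with 12 DMSO lines with edgeR 4.0.16 (quasi-likelihood, Benjamini-Hochberg, threshold 0.01) in R 4.3.3. Alternatives were the likelihood ratio test, DESeq2 1.42.0, other scalings, filters and thresholds, a depth covariate, thinning and leaving out lines. On simulated counts, 195 of 199 tested genes changed 4-fold were recovered with 2 false calls. The changed genes were drawn from above a floor in level and changed in all paclitaxel libraries. Recovery of smaller changes, or of changes in only some lines, was not simulated. Spearman's rho used log2 CPM with a prior count of 2. Shares were tested with numpy 2.4.6. The members, gene lists and tests were chosen with earlier results of these data known. Genes named are the 10 members, the called genes and ranges of the lists, and the 3 genes most like Tubb3, Tuba1b and Tubb5. P-values set the difference between the groups against the spread between lines, each of which gave 1 library. Protein sequences were not used here.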

Additional observations from a re-analysis of the deposited data

Results flagged for a closer look

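In the parental library, which entered no comparison, Tubb2b stood at 59.0 CPM (99 reads), above the highest DMSO line at 40.7 CPM, and its share of the β counts was 2.37% (Wilson interval 1.95 to 2.88%) against 1.57% at most in a DMSO line. By level, none of the other 9 members exceeded its DMSO range there, while the share of Tubb2a was 2.63% against 2.60% at most in a DMSO line.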

How the results depend on the processing

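No paired analysis was possible because the DMSO lines are numbered and the paclitaxel lines carry well names. Of the members, 2 were called (Tuba1c and Tubb3) with the likelihood ratio test, with DESeq2 and at a threshold of 0.05, and 0 when thinned, where Tubb3 was filtered out. Leaving out 1 line gave 0 (without DMSO 8) to 1. The number of all genes called was 448 with the likelihood ratio test, 491 with DESeq2, 714 at a threshold of 0.05, 114 when thinned, 321 without DMSO 12 and Pac H9, 368 without Pac C3 and DMSO 11, and 139 (without DMSO 4) to 300 (without DMSO 12) leaving out 1 line.

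The log2 fold change of Tubb2a, -0.07, turned to 0.027 with library totals and ran from -0.20 to 0.059 leaving out 1 line. The other 8 members tested kept their direction under every alternative that gave a value, and Tubb3 was filtered out without Pac C11, Pac D4, Pac E1, Pac E2 or Pac F10.

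Of the share differences (percentage points), Tuba1a was -4.53 thinned, -4.46 without Pac C3 and DMSO 11 and -2.89 by medians, each then with p under 0.05. Tubb5 passed at 2.16 without Pac C3 and DMSO 11 and at 1.82 by medians. Tuba1b lost its call at 5.02 without DMSO 12 and Pac H9, and Tubb3 at 0.351 without Pac C3 and DMSO 11 and 0.0411 by medians. Tuba4a turned to -0.368 thinned and -0.0530 by medians. Leaving out 1 line gave -4.52 to -2.91 for Tuba1a, 4.18 to 6.07 for Tuba1b, -1.92 to -1.23 for Tuba1c, -0.635 to 0.733 for Tuba4a, 0.355 to 0.500 for Tubb3 and 1.30 to 2.02 for Tubb5. With 1 line left out, p fell under 0.05 for Tuba1c without Pac D7 or Pac G9, for Tubb5 without Pac C3 or Pac D7 and for Tuba1a without any 1 of 10 lines, and it rose to 0.05 or more without any 1 of 20 lines for Tuba1b and of 15 for Tubb3. Counting other α and β tubulins in the denominator changed no call, and the shares of Tubb4b and Tubb2b passed under every alternative. The causes were not tested. Shallow libraries limit Tubb3 and Tubb6 most.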
